A study of Mus musculus with 42 samples.

Results

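The genes described here are 10 transcription factors that work in the making of somatosensory neurons from the neural crest: Pou4f1, Pou4f2, Pou4f3, Prrxl1, Hmx1, Runx1, Runx3, Isl1, Shox2 and Tlx3. Every probe set, the group of short oligonucleotides that reads a transcript on an Affymetrix GeneChip, was taken if the platform annotation gave it exactly 1 of these symbols. That gave 18 of the 45101 probe sets of the Mouse430_2 array, covering 9 of its 18194 genes, and 6 of the 12488 probe sets of the MG-U74Av2 array, covering 5 of its 8252 genes. Pou4f2 had no such probe set on either array and is not described further. Pou4f1, Pou4f3, Prrxl1 and Runx3 were read on Mouse430_2 alone. Signals were measured in the nodose ganglion (NG) and the dorsal root ganglion (DRG) of BALB/c mice, a standard inbred strain.

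The NG holds the cell bodies of vagal afferents from the viscera, and the DRG holds those of spinal afferents. In 3 experiments the ganglia were set against each other, and no treatment or mutation is named for any group. About 150 neurons a sample, cut from sections by laser capture microdissection, were read on Mouse430_2 for NG (n = 11) and DRG (n = 9) and on MG-U74Av2 for NG (n = 5) and DRG (n = 5). Whole ganglia, lysed without capture, were read on MG-U74Av2 for NG (n = 7) and DRG (n = 5). About 12 µg of RNA was labelled for each array. Per the labels' protocols, the captured samples on MG-U74Av2 were labelled from amplified RNA and all others from total RNA. How so few captured neurons yielded enough total RNA for Mouse430_2 was not found in the sources used here. The log2 ratio of the 3′ to the 5′ control probe set of beta actin averaged 5.71 in NG and 5.61 in DRG on Mouse430_2. On MG-U74Av2 it averaged 5.82 and 5.45 in captured neurons, and 2.94 and 2.80 in whole ganglia. The means for Gapdh, in the same order, were 6.70 and 6.88, 6.63 and 6.96, and 5.50 and 5.33. What sets these ratios was not tested. The captured cells are called visceral sensory neurons, without a statement of how they were recognised. Sample descriptions name laser capture for every sample. For the whole ganglia, the extraction protocol and the design text were followed instead. On Mouse430_2, 5 NG and 5 DRG samples carry a number that also occurs among the captured samples on MG-U74Av2, so these experiments may share material. No label states that the samples are from separate animals. The p-values therefore weigh each difference against the spread of these samples, and that spread may be technical.

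Somatosensory neurons of the DRG arise from the neural crest, while most neurons of the NG arise from an epibranchial placode, a thickening of the embryonic surface ectoderm. In both lineages the LIM-homeodomain factor Isl1 and the POU factor Pou4f1 (Brn3a) act early, and in the mouse DRG they switch off early neurogenic genes and permit subtype genes. Prrxl1 (Drg11) and Tlx3 then act in relay circuits for pain and touch, Runx1 and Runx3 divide nociceptors from proprioceptors, and Shox2 acts in mechanoreceptors.

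The arrays differed in brightness before scaling, with 2% trimmed means of 84.2 to 200.5 on Mouse430_2, and on MG-U74Av2 of 187.7 to 274.5 for captured neurons and 174.9 to 408.3 for whole ganglia. All signals given here were scaled to a common trimmed mean within an experiment. The summed signal of 12 pan-sensory neuron markers on Mouse430_2 ran from 27077 to 35454 in NG and from 27072 to 41366 in DRG. Each of these markers was above the 40th percentile on at least 1 array. Phox2a, a factor of visceral neurons, averaged 176.4 ± 118.1 in captured NG neurons and 30.15 ± 12.6 in captured DRG neurons (SD, n = 11 and 9). NG samples 010 and 014 stood nearest to DRG along the first principal component of Mouse430_2, and samples with those numbers also stood apart from the other NG samples on MG-U74Av2, so results are also given without them where they matter.

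In captured neurons on Mouse430_2, the members moved in both directions. Prrxl1, Pou4f1 and Hmx1 were far lower in NG than in DRG, Runx1 and Shox2 were lower by less, and Tlx3, Runx3 and Isl1 were higher in NG. Of the 18 probe sets, 12 passed the filter on dim signals (a signal above the 40th percentile of its array, on 9 arrays or more; 5 or more on MG-U74Av2), and 9 of those passed an adjusted p of 0.05 in limma, with 3 higher in NG and 6 higher in DRG. Over the whole array, 22.2% of 28107 probe sets tested passed, 9.72% higher in NG and 12.5% higher in DRG. The groups did not overlap for 3 member probe sets, against 3.84% of all tested. Fold differences are on the log2(signal + pseudocount) scale, which understates those of dim genes. Each captured sample pools about 150 neurons, so fewer cells of a type and less RNA per cell cannot be told apart.

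**Figure D1:**
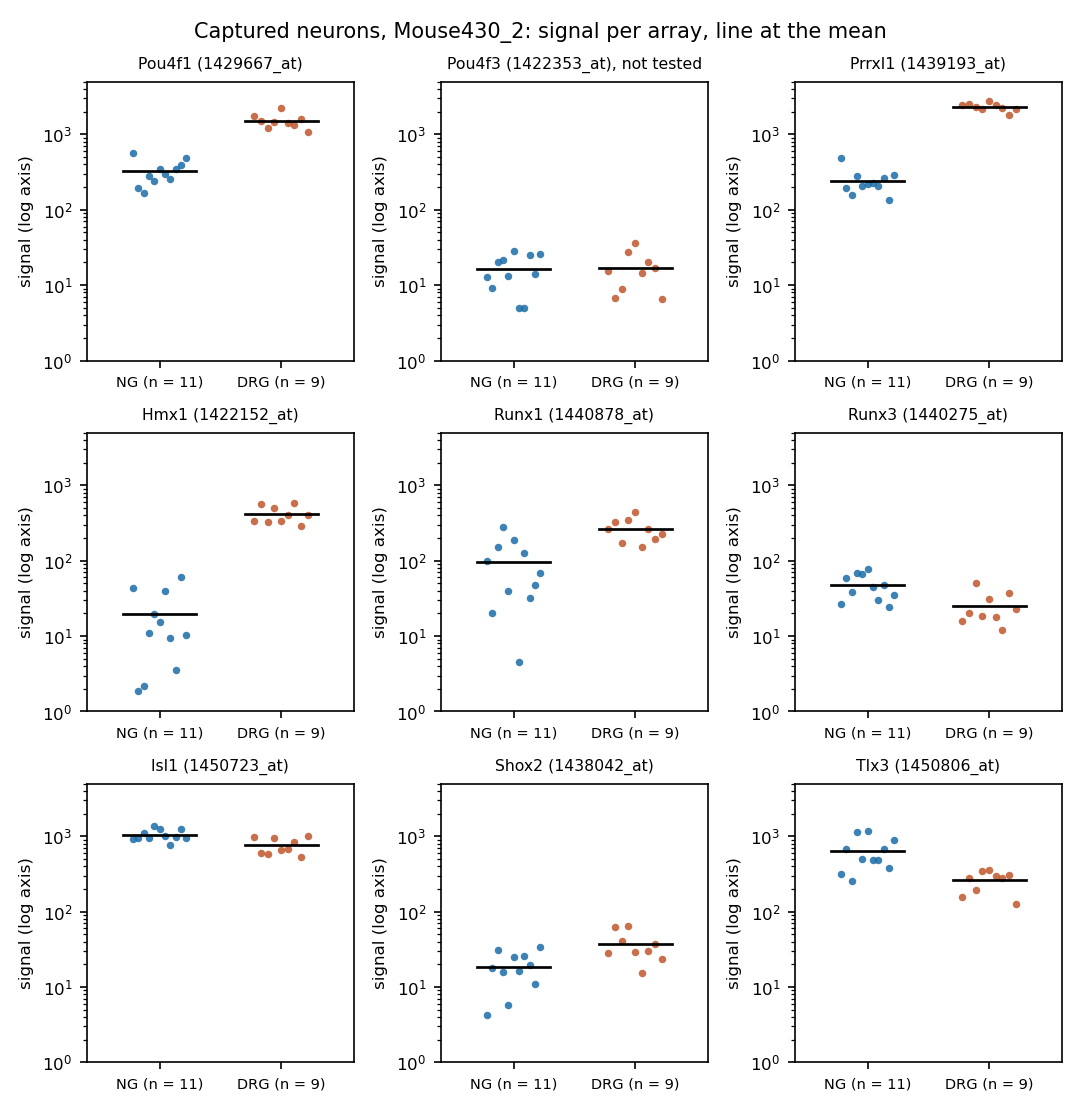
Signal of the leading probe set of each member in captured neurons on Mouse430_2 (log axis, arbitrary intensity units after scaling), NG at the left (11 arrays, blue) and DRG at the right (9 arrays, orange), with a line at the mean. Prrxl1, Pou4f1 and Hmx1 show a clear gap between the ganglia, Tlx3 lies higher in NG with overlap, and Pou4f3 is dim in both.

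Prrxl1 encodes a paired homeodomain protein that mouse nociceptors and their dorsal horn targets need for normal connections. Its signal ran from 136.3 over a median of 221.2 to 485.0 in the 11 NG samples, and from 1806 over a median of 2329 to 2753 in the 9 DRG samples. The highest NG sample, number 010, lay far below the lowest DRG sample, and the groups did not overlap. Prrxl1 averaged 243.6 ± 93.19 in NG and 2322 ± 277.6 in DRG (SD), a log2 difference of -3.28 (SE 0.16, limma adjusted p = 1.81e-14) or 9.71-fold. In order of p it was number 19 of the 28107 probe sets. Without NG samples 010 and 014 the log2 difference was -3.31. NG arrays placed the probe set between the 77.0th and the 90.4th percentile of all probe sets and DRG arrays between the 98.0th and the 98.7th, so the gene was also read well above the dim range in NG.

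Pou4f1, the pan-sensory POU factor, followed the same pattern with a smaller difference. The signal of probe set 1429667_at was lowest at 168.8, had a median of 301.4 and was highest at 562.7 in NG, against a lowest value of 1092, a median of 1468 and a highest of 2245 in DRG. The groups did not overlap, and again NG sample 010 was the highest of its group. Means were 325.3 ± 120.5 in NG and 1521 ± 336.6 in DRG (log2 difference -2.25, SE 0.181, limma adjusted p = 2.97e-10), or 4.77-fold. The other probe set, 1429668_at, was too dim to be tested, at 10.39 ± 5.877 in NG and 34.42 ± 10.29 in DRG. Without the filter on dim probe sets its log2 difference was -1.26 (SE 0.223, limma adjusted p = 0.000152).

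Hmx1, a homeodomain factor of cranial, dorsal root and sympathetic ganglia, had the largest fold of the members. Its signal in NG was lowest at 1.849, had a median of 11.07 and reached 60.74, while in DRG it ran from 286.8 over a median of 399.1 to 574.4. NG samples 014, 010 and 015 were the brightest of their group, at 60.7, 43.2 and 39.4, and all lay far below every DRG sample. The log2 difference was -4.22 (SE 0.309, limma adjusted p = 4.98e-11), or 18.7-fold, the 13th lowest of all probe sets tested. In NG, 4 of 11 arrays held Hmx1 above the 40th percentile, so most NG values may be background. The log2 difference was -3.48 with the largest pseudocount tried. Without NG samples 010 and 014 the log2 difference was -4.53.

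**Figure D2:**
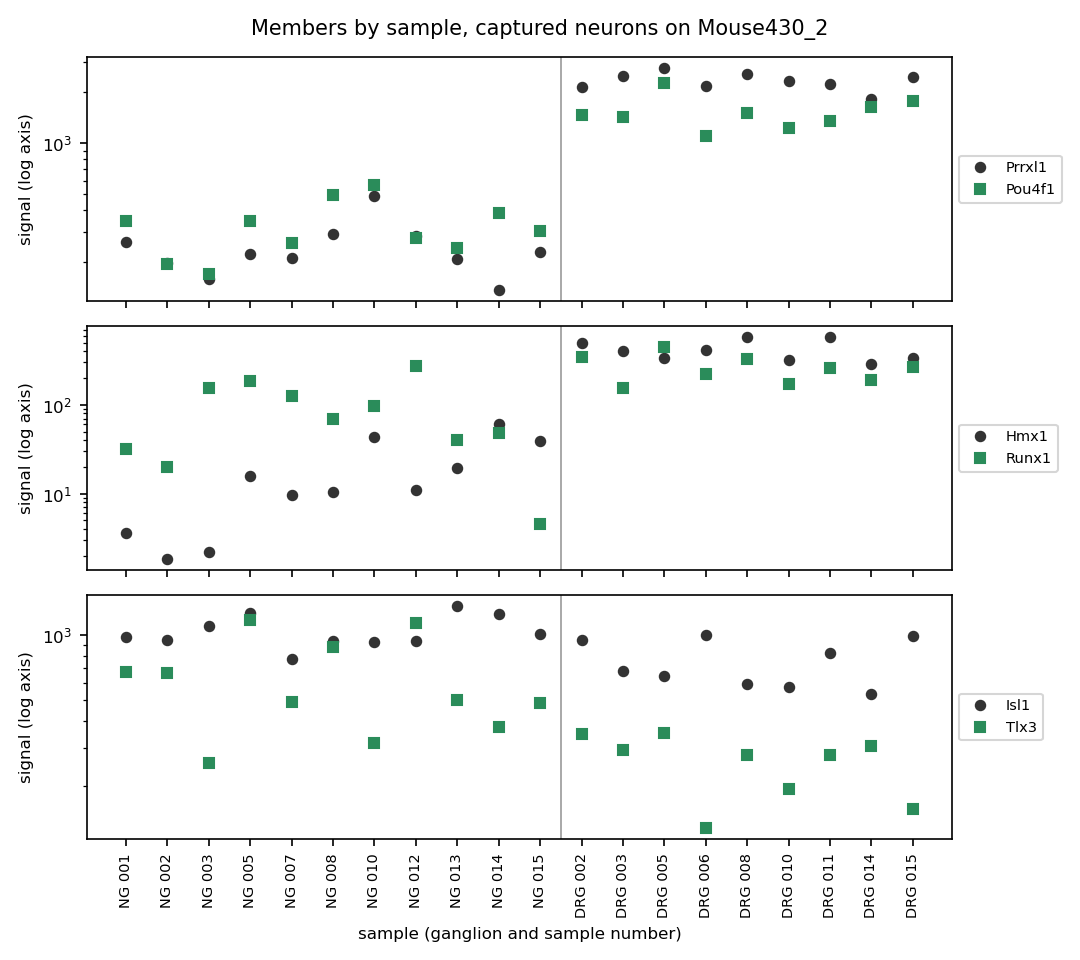
Signal of 6 members in each captured sample on Mouse430_2 (log axis, arbitrary intensity units after scaling), NG samples at the left and DRG samples at the right, by sample number. Prrxl1, Pou4f1 and Hmx1 separate the ganglia in every sample, NG sample 010 holds the most Prrxl1 and Pou4f1 of its group, and Runx1, Isl1 and Tlx3 overlap.

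The promoters of Prrxl1 and Pou4f1, and that of Tlx3, which moved the other way on this array, are shown because these members had large differences in each direction. Each window runs from 250 bases before to 50 bases after the annotated start, 5′ to 3′ on the gene's strand, from RefSeq on build GRCm38.p6. Prrxl1 lies at chr14:32599677-32599976 (plus strand), Pou4f1 at chr14:104467950-104468249 (minus strand) and Tlx3 at chr11:33203539-33203838 (minus strand). Capitals mark matches to the RUNX core motif TGNGGT on either strand.
Prrxl1 promoter: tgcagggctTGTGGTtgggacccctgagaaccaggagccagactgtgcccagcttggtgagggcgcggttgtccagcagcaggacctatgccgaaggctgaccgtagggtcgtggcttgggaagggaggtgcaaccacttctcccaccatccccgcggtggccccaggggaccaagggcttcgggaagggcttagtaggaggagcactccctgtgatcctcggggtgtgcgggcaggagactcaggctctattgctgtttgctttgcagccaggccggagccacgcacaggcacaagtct
Pou4f1 promoter: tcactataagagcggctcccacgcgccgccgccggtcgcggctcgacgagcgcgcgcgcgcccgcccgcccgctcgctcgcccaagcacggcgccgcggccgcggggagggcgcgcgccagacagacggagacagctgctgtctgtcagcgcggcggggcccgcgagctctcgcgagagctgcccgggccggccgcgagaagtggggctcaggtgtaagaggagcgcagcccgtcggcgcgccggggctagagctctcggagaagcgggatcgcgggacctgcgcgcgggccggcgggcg
Tlx3 promoter: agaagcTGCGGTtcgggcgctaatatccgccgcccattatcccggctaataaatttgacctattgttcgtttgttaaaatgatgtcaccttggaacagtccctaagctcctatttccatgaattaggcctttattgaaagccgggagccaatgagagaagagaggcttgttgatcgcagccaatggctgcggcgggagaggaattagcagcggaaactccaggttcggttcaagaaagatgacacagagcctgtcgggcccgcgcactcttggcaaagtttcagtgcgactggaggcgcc
Prrxl1 held 1 RUNX match, starting at base -241 from the annotated start, and Tlx3 held 1, starting at base -244. Of 32851 promoter windows of 300 bases, 45.8% held that match, so it is common. Another 3 motifs were searched on both strands and had no match in these 3 windows. The homeodomain core, spelled TAATTA, was held by 5.29% of all windows. The motif of HMX proteins, spelled CAAGTG, was held by 13.6%, and that of POU4 proteins, spelled ATNATTAAT, by 0.989%. Base composition differed between them, with 78.3% G and C for Pou4f1, 63.7% for Prrxl1 and 51.7% for Tlx3.

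Runx1 encodes the RUNX factor that mouse nociceptors need for their nonpeptidergic subtypes, and it is also used by blood cells. Its 6 probe sets on Mouse430_2 did not give 1 answer. The probe set with the highest mean signal, 1440878_at, was lowest at 4.6, had a median of 68.38 and was highest at 276.1 in NG, and ran from 153.5 over a median of 262.0 to 449.6 in DRG. NG samples 003, 005 and 012 reached the range of DRG and the groups overlapped. The log2 difference was -1.82 (SE 0.409, limma adjusted p = 0.00152), 3.54-fold. Probe set 1422864_at was also lower in NG, at 19.76 ± 14.16 against 46.32 ± 19.52 in DRG (log2 difference -1.06, SE 0.273, limma adjusted p = 0.00499). Neither 1452530_a_at (-0.09, 95% interval -0.65 to 0.47) nor 1452531_at (0.04, -0.44 to 0.52) passed the test. The remaining pair, 1422865_at and 1427650_a_at, were too dim to be tested.

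Runx3, the RUNX factor of mouse proprioceptors, had a low signal in both ganglia. Probe set 1440275_at ran from 24.47 over a median of 44.38 to 77.46 in NG, and from 12.22 over 20.06 to 50.11 in DRG. The groups overlapped, and NG samples 010 and 014 were among the lowest of theirs. The log2 difference was 0.75 (SE 0.224, limma adjusted p = 0.0153), higher in NG. Without samples 010 and 014 it was 0.89, and without scaling between arrays it was 0.66 and the call was lost (limma adjusted p = 0.0758). Only 4 of 9 DRG arrays but all 11 NG arrays had it above the 40th percentile. Probe set 1421467_at was below that level on all 20 arrays. Since RUNX genes are also used by immune cells, the immune markers are given beside them: their summed signal was 1490 to 2098 in NG and 1235 to 1774 in DRG, 2 of 10 tested were higher in NG and 1 in DRG, and 4 of the 18 on the array (Ptprc, Aif1, Itgam and C1qc) were at or below the 40th percentile on every array, the other 14 being above it on at least 1. Their part in the RUNX results was not tested.

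Tlx3 encodes a homeodomain factor that selects the glutamatergic fate in dorsal spinal and hindbrain relay neurons and is also made in sensory ganglia. Its signal was lowest at 255.3, had a median of 498.5 and was highest at 1171 in NG, and ran from 128.0 over 278.6 to 351.6 in DRG. NG samples 003 and 010 lay within the range of DRG, and the other 9 lay above it. Tlx3 averaged 632.6 ± 312.9 in NG and 259.2 ± 81.35 in DRG (log2 difference 1.18, SE 0.25, limma adjusted p = 0.000854), 2.26-fold. Without samples 010 and 014 the log2 difference was 1.34.

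Isl1, the LIM-homeodomain factor shared by both lineages, was bright in both ganglia. Probe set 1450723_at ran from 770.1 over a median of 977.2 to 1359 in NG, and from 533.3 over 682.3 to 998.2 in DRG. The groups overlapped widely, and the log2 difference was 0.48 (SE 0.134, limma adjusted p = 0.00916). The other probe set, 1422720_at, gave 0.33 (95% interval -0.13 to 0.80) and did not pass. Without scaling between arrays, 1450723_at gave 0.35 with a limma adjusted p of 0.31, so its call rests on the scaling.

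Shox2, the homeodomain factor of mouse mechanoreceptors, was dim on this array. Probe set 1438042_at ran from 4.213 over a median of 17.85 to 33.53 in NG, and from 15.32 over 30.42 to 64.83 in DRG. The groups overlapped, and the log2 difference was -0.77 (SE 0.252, limma adjusted p = 0.0275). The call was lost without DRG sample 008 (adjusted p = 0.0654), DRG sample 002 (0.063) or NG sample 013 (0.0508), and without NG samples 010 and 014 (0.0777). Probe set 1420559_a_at was below the 40th percentile on all 20 arrays, at 2.6 ± 0.5897 in NG and 8.782 ± 4.918 in DRG. Pou4f3, the POU factor of hair cells that is also found in some sensory neurons, was not tested, with 16.45 ± 8.42 in NG and 17.07 ± 9.951 in DRG.

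**Figure D3:**
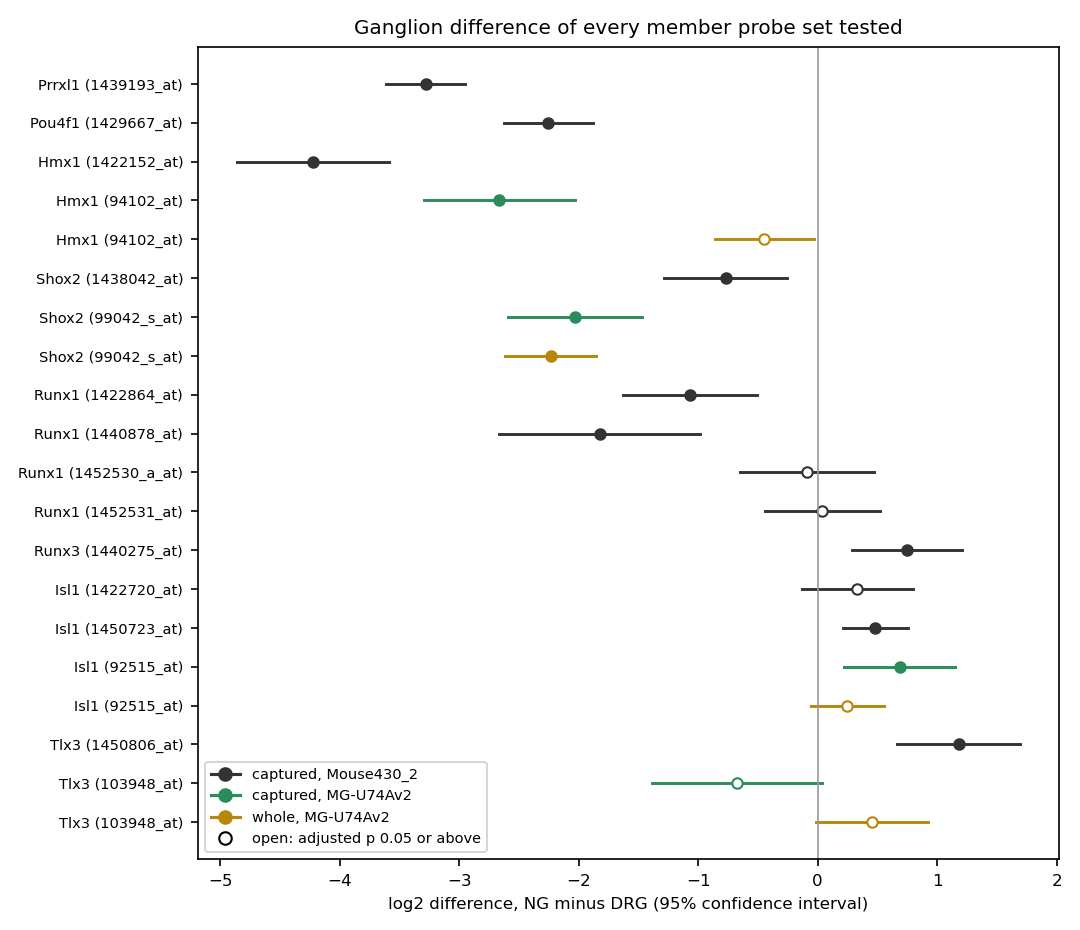
Log2 difference, NG minus DRG, of every member probe set tested (point) with its 95% confidence interval (line), coloured by experiment, filled where the limma adjusted p was under 0.05. Differences run from -4.22 for Hmx1 to 1.18 for Tlx3 on Mouse430_2, and the 3 experiments agree on the side of 0 for Hmx1, Shox2 and Isl1 and not for Tlx3.

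In captured neurons on MG-U74Av2, Hmx1 and Shox2 were lower in NG and Isl1 was higher. Of the 6 member probe sets 4 were tested and 3 passed, 1 higher and 2 lower in NG, where 21.8% of all 7583 probe sets tested passed (10.4% higher in NG, 11.3% higher in DRG). The groups did not overlap for 2 of the 4, against 16.3% of all tested. Hmx1 had signals of 21.8, 12.0, 7.34, 10.1 and 42.7 in the 5 NG samples and of 191, 221, 131, 104 and 179 in the 5 DRG samples. Every DRG sample was above the highest NG sample, number 014. The log2 difference was -2.66 (SE 0.296, limma adjusted p = 1.68e-05), or 6.34-fold. In NG 1 of 5 arrays held Hmx1 above the 40th percentile, so most NG values may be background and the fold depends on the pseudocount. The log2 value became -1.90 with the largest pseudocount tried and -3.07 without NG samples 010 and 014. Shox2, by probe set 99042_s_at, had 29.3, 53.8, 29.3, 40.6 and 92.6 in NG and 177, 265, 223, 291 and 158 in DRG. These groups did not overlap either, with a log2 difference of -2.03 (SE 0.263, limma adjusted p = 6.57e-05), or 4.09-fold.

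Isl1 had 155, 237, 144, 108 and 168 in NG, against 65.4, 86.6, 85.4, 138 and 108 in DRG. The groups overlapped, and the log2 difference of 0.69 (SE 0.219, limma adjusted p = 0.0367) was not stable: the call was lost when any 1 of NG samples 003, 010 or 014 or DRG samples 003, 008 or 010 was left out, with adjusted p-values up to 0.0922. It was also lost without scaling (adjusted p = 0.17) and without the filter on dim probe sets (0.0607). Tlx3 had 55.4, 75.6, 23.3, 15.8 and 14.003 in NG and 54.8, 79.0, 45.6, 53.4 and 50.1 in DRG. The 2 highest NG samples lay in the range of DRG and the other 3 below it. The log2 difference of -0.67 (SE 0.333, 95% interval -1.39 to 0.04, limma adjusted p = 0.171) had the opposite sign to that on Mouse430_2, and without NG sample 003 it was -0.94 (adjusted p = 0.0367). The probe sets differ between the arrays, and which reads the transcript better was not tested. Runx1 was too dim to be tested, at 11.7 ± 8.104 in NG and 26.09 ± 12.99 in DRG, and the second Shox2 probe set, 99043_s_at, was also too dim.

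In whole ganglia, Shox2 was the member that passed. Of the 6 probe sets 4 were tested and 1 passed, lower in NG, where 35.4% of 7698 probe sets passed (19.6% higher in NG, 15.8% higher in DRG). The groups did not overlap for 1 of the 4, against 18.1% of all tested. Shox2 ran from 101 over a median of 118.6 to 215 in the 7 NG samples, and stood at 686, 809, 737, 568.5 and 670 in the 5 DRG samples. The lowest DRG sample was above every NG sample by a wide gap. The log2 difference was -2.23 (SE 0.18, limma adjusted p = 4.71e-08), or 4.71-fold, the 21st lowest of all probe sets tested. In ganglia lysed whole, as in pools of captured neurons, fewer cells of a type and less RNA per cell cannot be told apart. Hmx1, which differed so widely in captured neurons, ran from 19.8 over 46.85 to 63.2 in NG and stood at 59.0, 67.4, 50.04, 69.0 and 62.1 in DRG. The groups overlapped, and the log2 difference of -0.45 (SE 0.198, limma adjusted p = 0.0919) did not pass. It did without NG sample 023 (-0.53, adjusted p = 0.0496), without scaling (-0.73, 0.0286), with equal medians (0.0467), with quantiles (0.0452) and with array weights (0.0345).

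Isl1 ran from 246 over 418.6 to 495 in whole NG and was 287, 300, 338, 313 and 396 in whole DRG (log2 difference 0.25, 95% interval -0.06 to 0.55, limma adjusted p = 0.204). Without NG sample 046, the lowest of its group, it was 0.35 and passed (adjusted p = 0.0264). Tlx3 ran from 31.5 over 49.41 to 54.9 in NG and was 22.2, 13.1, 50.5, 26.9 and 44.7 in DRG, and the groups overlapped (log2 difference 0.46, 95% interval -0.01 to 0.92, limma adjusted p = 0.124). Of the whole-ganglion arrays, 4 of 7 in NG and 2 of 5 in DRG held Tlx3 above the 40th percentile. Runx1 ran from 13.9 over 19.4 to 31.4 in NG and was 44.3, 40.7, 51.8, 42.9 and 50.2 in DRG. Every NG sample was below every DRG sample, but the probe set did not pass the filter on dim signals. Without that filter its log2 difference was -0.77 (SE 0.172, limma adjusted p = 0.00359). The summed immune markers ran from 2149 to 2726 in whole NG and from 1588 to 2105 in whole DRG. Of these 18 markers, 6 were at or below the 40th percentile on every whole-ganglion array. Their part in the Runx1 result was not tested.

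**Figure D4:**
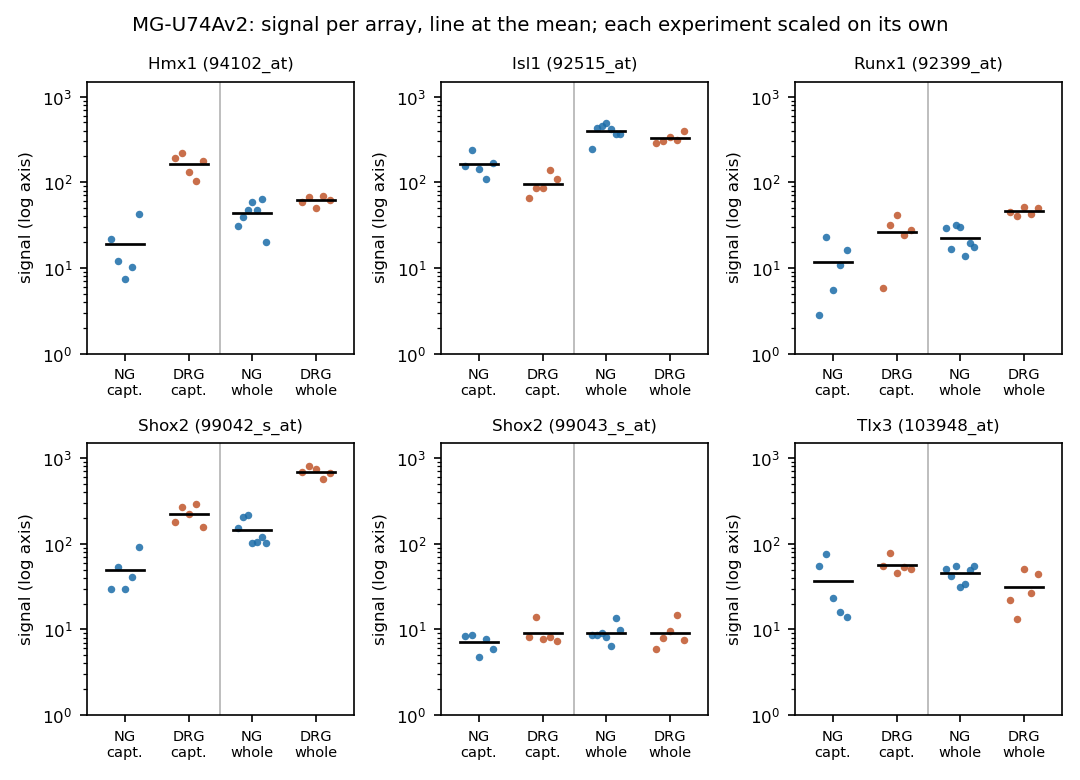
Signal of the 6 member probe sets on MG-U74Av2 (log axis, arbitrary intensity units, each experiment scaled on its own), with captured neurons at the left (NG n = 5, DRG n = 5) and whole ganglia at the right (NG n = 7, DRG n = 5), and lines at the means. Shox2 (99042_s_at) differs between the ganglia in both preparations, and Hmx1 stands at 7.34 to 42.7 in captured NG and 104 to 221 in captured DRG, while its whole groups overlap.

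The 4 groups on MG-U74Av2 were also scaled and fitted together, to set captured neurons against whole ganglia within a ganglion. These preparations also differ in RNA amplification and in experiment, which cannot be told apart from capture. They differ as well in the mean 3′ to 5′ ratios of the control probe sets given above. In NG 3 of 5 tested member probe sets were lower in captured neurons and 0 higher, where 55.3% of 8309 probe sets differed (29.2% lower, 26.2% higher). In DRG 2 were lower and 2 higher, where 47.2% differed (24.3% lower, 22.9% higher). Isl1 was lower in captured neurons of both ganglia (log2 difference -1.10 in NG and -1.54 in DRG), and so was Shox2 (-1.26 in NG and -1.47 in DRG). Hmx1 went in opposite directions, with -0.83 in NG (SE 0.243, limma adjusted p = 0.00533) and 1.37 in DRG (SE 0.262, limma adjusted p = 0.000115). Its captured and whole samples overlapped in NG, where most captured values may be background.

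The ganglion difference of Hmx1 was thus larger in captured neurons than in whole ganglia. The difference between the ganglion differences was -2.20 (SE 0.357, limma adjusted p = 8.96e-05), and Hmx1 was the member, 1 of 5 tested, that passed, where 18.2% of all probe sets did (10.5% below 0). Mean Hmx1 signals on the common scale were 19.91 ± 15.27 in captured NG and 175.1 ± 49.93 in captured DRG, against 41.69 ± 14.55 in whole NG and 58.78 ± 7.247 in whole DRG (SD). By these means captured NG was the lowest, followed by whole NG, whole DRG and captured DRG. Of the neighbours in this order the whole groups did not differ past the threshold, and the others did. The captured and whole samples overlapped in NG and did not in DRG. Hmx1 was above the percentile of the filter on 1 of 5 captured and 4 of 7 whole NG arrays. Most captured and some whole NG values may thus be background. These values enter both the step between the NG groups and the -2.20, and the part of background in them was not tested. Tlx3 followed with -1.13 (SE 0.402, limma adjusted p = 0.0507), which missed the threshold, and its captured DRG samples were higher than whole ones (0.84, SE 0.295, limma adjusted p = 0.0205). That last call was lost without whole DRG sample 070 (adjusted p = 0.0504) or 084 (0.0741) or captured DRG sample 008 (0.0606). For Shox2 the ganglion differences did not differ past the threshold (0.21, 95% interval -0.46 to 0.88).

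Markers of satellite glia and Schwann cells moved with preparation and, in captured neurons, with ganglion. Their summed signal over 11 genes was 12205 to 13081 in captured NG and 14222 to 16508 in captured DRG, and 19040 to 23779 in whole NG and 18708 to 22326 in whole DRG, the preparations being scaled separately. In the common fit, 1 of 11 was higher and 8 lower in captured than in whole NG, and 3 were higher and 5 lower in captured than in whole DRG. On Mouse430_2 the sum was over 13 genes, and was 11173 to 14220 in NG and 14110 to 16972 in DRG. Of 12 tested genes there, 4 were higher in DRG and 0 in NG. None of these markers was at or below the 40th percentile throughout. Their part in the results on Prrxl1, Pou4f1, Hmx1 and Shox2 was not tested. Neuron markers also moved with capture, in both directions. Of 11 pan-sensory markers, 4 were higher and 6 lower in captured than in whole NG in the common fit. Their median log2 difference there was -0.57. For DRG 3 were higher and 4 lower, with a median of -0.27. The medians of the glial markers were -0.85 in NG and -0.21 in DRG.

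**Figure D5:**
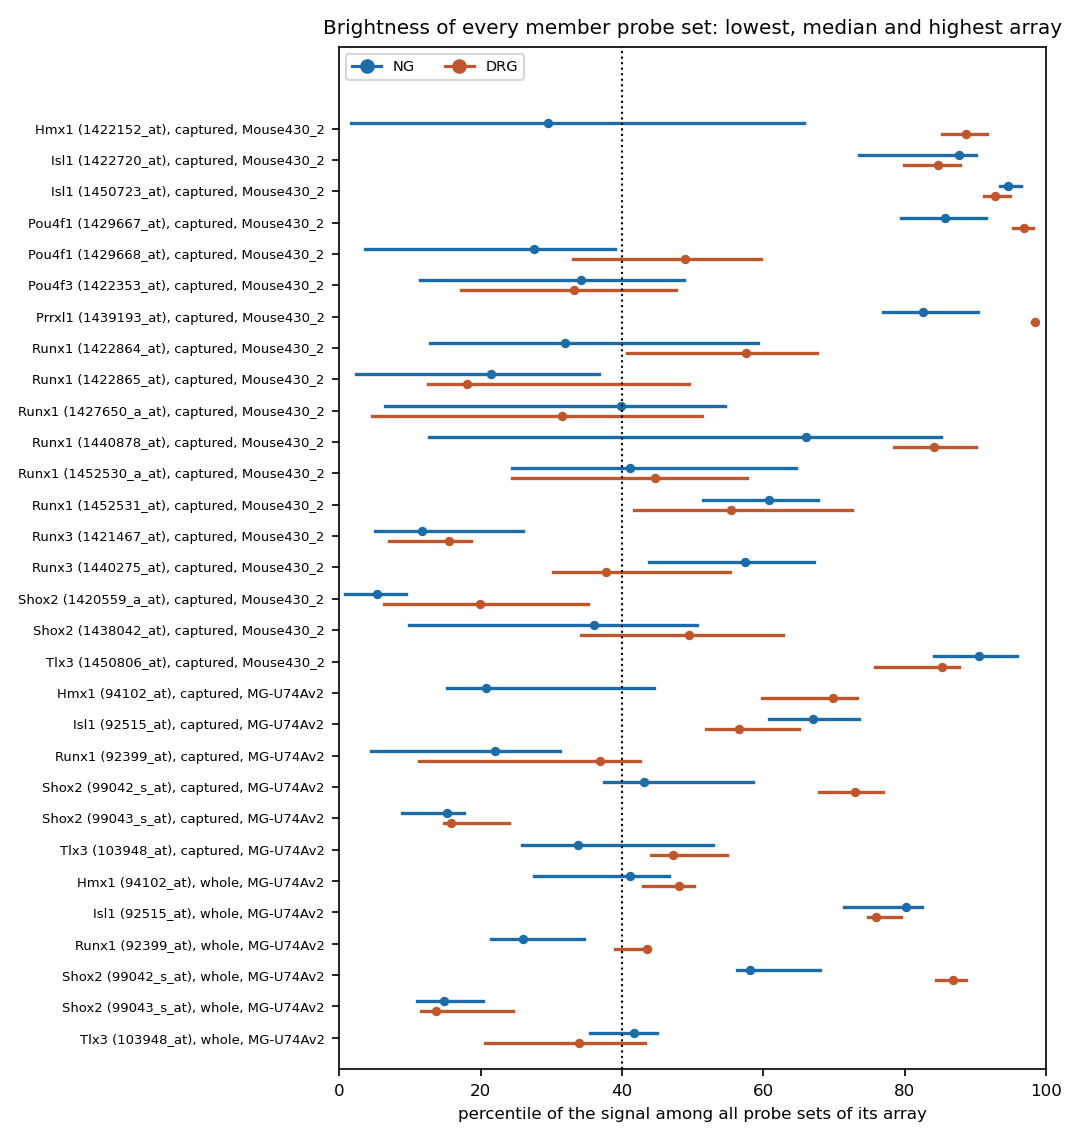
Brightness of every member probe set, as the percentile of its signal among all probe sets of the same array (x axis), with the lowest, median and highest array of NG (blue, upper line) and DRG (orange, lower line) in each experiment, and the 40th percentile dotted. Prrxl1 stands between the 98.0th and the 98.7th percentile on the DRG arrays, and Pou4f3, Runx3 (1421467_at) and the dim Shox2 probe sets stand at or near the background range.

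Related genes were read on Mouse430_2 by the leading probe set of each gene, beside a median log2 difference of -0.05 over all probe sets tested. Of 10 tested family relatives, 1 was higher in NG and 1 in DRG, with a median of -0.03. They were Tlx2, a homeodomain factor of autonomic and enteric neurons (303.0 ± 91.73 in NG, 170.2 ± 63.44 in DRG, log2 difference 0.81), and Isl2, the relative of Isl1 (437.9 ± 131.2 in NG, 719.0 ± 124.2 in DRG, -0.74). Of 13 tested cofactors of RUNX and LIM-homeodomain proteins, 5 passed as higher in NG and 2 as higher in DRG (median 0.13). The Groucho corepressors split, Tle1 (log2 difference 1.38) and Tle4 (1.10) being higher in NG and Tle3 (-2.28) in DRG. The LIM-only factors split too, with Lmo4 higher in NG (1.05) and Lmo3 in DRG (-1.40). Cbfb, the DNA-binding partner of RUNX proteins, gave 0.13 (limma adjusted p = 0.333).

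Of 17 tested other factors of DRG subtypes, 1 was higher in NG and 7 in DRG, with a median of -0.39, where 9.72% of all probe sets were higher in NG and 12.5% in DRG. The DRG side held Zfp521 (-2.12), Meis2 (-2.04) and Maf (-1.70), a factor of touch receptors. Cux2 was the exception, at 534.9 ± 143.8 in NG and 151.6 ± 41.6 in DRG (log2 difference 1.77). Of 9 tested placode and visceral factors 4 passed as higher in NG and 1 as higher in DRG (median 0.38), led by Tbx3 (3.32), Eya1 (2.87) and Phox2a (2.18). The exception was Sox2 (-1.06), which glia also use. Of 14 tested factors of neurogenesis and the neural crest, 1 was higher in NG (Sox11, 0.59) and 2 in DRG (Insm2, -1.69, and Insm1, -0.86), with a median of 0.01.

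Genes that are reduced in DRG of mouse Runx1 mutants were read beside Runx1. Of 5 tested on Mouse430_2, 0 passed as higher in NG and 3 as higher in DRG (median -0.60). Mrgpra3, an itch receptor, averaged 40.91 ± 19.21 in NG and 336.9 ± 136.3 in DRG (log2 difference -2.86). Trpa1, the irritant-gated channel, averaged 456.0 ± 372.9 in NG and 2446 ± 549.9 in DRG (-2.71), and the sodium channel gene Scn11a gave -0.60. Gfra2 and Ret did not pass. Of 9 tested genes of proprioceptors and mechanoreceptors, 6 were higher in DRG and 1 in NG, with a median of -1.60. Ntrk3, the receptor that marks proprioceptors and depends on Runx3 in mouse, was lower in NG (119.7 ± 56.38 against 926.5 ± 315.7 in DRG, log2 difference -2.96). Piezo2, the touch channel, gave -2.38, and Ntrk2, the neurotrophin receptor that mouse mechanoreceptors express with Shox2, was higher in NG (2.29). Of 12 pan-sensory markers 2 passed as higher in NG and 3 as higher in DRG, with a median of -0.11. Of 7 tested sympathetic markers 2 were higher in NG and 0 in DRG (median 0.27), and of 9 endothelial and mural markers 1 was higher in NG and 3 in DRG (median -0.17).

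On MG-U74Av2 fewer of these genes could be read. Of the other factors of DRG subtypes, 1 of 6 tested was higher in captured NG (Ebf1, 0.76) and 0 in captured DRG, with a median of -0.013. In whole ganglia 1 of 7 was higher in NG (Cux2, 1.97) and 2 in DRG (Ebf3, -1.11, and Klf7, -0.77). Of the genes reduced in Runx1 mutants, Gfra2 alone was tested in captured neurons and did not pass (0.27, higher in NG), and neither of the 2 tested in whole ganglia passed (median -0.40). In captured neurons 2 of 5 tested proprioceptor and mechanoreceptor genes were higher in DRG (Nefh, -2.05, and Ntrk3, -1.66) and 0 in NG, and in whole ganglia 4 of 5 were (Calb1, -1.79, leading) and 0 in NG. Of the 12 tested cofactors, 2 were higher in captured NG and 2 in captured DRG, and 4 and 4 in whole ganglia. Tle4 was on the side of NG in both (1.35 in captured neurons, 0.85 in whole ganglia), and Tle3 on that of DRG (-1.63 in captured neurons, -0.38 in whole ganglia). Tle1 was higher in whole DRG (-0.37), the other side from captured neurons on Mouse430_2. Tlx2 was higher in NG in captured neurons (1.06) and whole ganglia (0.55).

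The genes whose log2 signal followed a member most closely over the 20 arrays of Mouse430_2 were looked up among 13958 candidates. Pearson's r over these arrays is a description, since the arrays form 2 groups. Prrxl1 was followed by Tafa1 (r = 0.985), Kcna2 (0.973), a potassium channel gene, and Hopx (0.970), with deviations from the group means correlating at 0.652, 0.486 and 0.265. Pou4f1 was followed by Kcna2 (0.971), Tafa1 (0.968) and Prrxl1 itself (0.960), with deviations correlating at 0.724, 0.698 and 0.585. Hmx1 was followed by Aldh1a1 (0.965), Ror2 (0.961) and Gfra3 (0.960), with deviations correlating at 0.809, 0.538 and 0.627. Aldh1a1 makes retinoic acid. Tlx3 was followed by Tmem106a (0.933), Lrrc24 (0.913) and Exoc6b (0.908), and here the deviations correlated at 0.864, 0.837 and 0.848.

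The other members had lower correlations with their closest genes. Runx1 had Tent5a (r = 0.870), Hoxb9 (0.833) and Tph2 (0.833), and Runx3 had Chrm1 (0.881), Rcsd1 (0.868) and Avpr1a (0.866). Isl1 had Hsd17b12 (0.831), Zfp821 (0.814) and Ccdc91 (0.792), and Shox2 had Car12 (0.827), Frmpd3 (0.807) and Zswim2 (0.781). Among Pou4f1, Prrxl1, Hmx1, Tlx3 and Isl1, 20 relations were computed within a ganglion, and none passed Benjamini-Hochberg adjustment. The lowest p was that of Pou4f1 and Prrxl1 in NG (n = 11, r = 0.626, permutation p = 0.0404, adjusted p = 0.558; Spearman's rho 0.609, permutation p = 0.0528, adjusted p = 0.551). Without the 2 samples whose Pou4f1 value lay farthest from its median, r was 0.183. Leaving these out also narrows the range of Pou4f1.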

How the data were processed

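The authors deposited 1 signal intensity for each probe set on each array, in linear units. Per the submitters' processing notes it was computed by MAS5 (version not given in the sources used here), which combines perfect-match and mismatch probes. Whether a probe set was called present was not analysed here, so dim signals may be background. Arrays were scaled to the same 2% trimmed mean within an experiment. Signals were analysed as log2(signal + pseudocount), with the 20th percentile of all values as the pseudocount: 7.48 on Mouse430_2, 10.4 in captured neurons and 12.3 in whole ganglia on MG-U74Av2, and 11.4 where these were fitted together. Each comparison was fitted over all probe sets that passed the filter with lmFit and eBayes (trend and robust) of limma 3.58.1, run in R 4.3.3 with data.table (1.17.8), two-sided, with Benjamini-Hochberg adjustment over all probe sets tested. The steps were tested on simulated data. The number of arrays limits the precision.

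The members and the gene lists were chosen with earlier results of these data known. From each list, the genes named are those that passed with the largest differences, at most 3 in a direction, by the probe set with the highest mean log2 signal. Cbfb, Gfra2, Ret and, in whole ganglia, Tle1 were named after their values were seen. For each member that passed, the 3 genes with the highest correlation are named. Sample numbers shared by the ganglia were not taken as pairs. Alternatives covered the scaling, pseudocount, filter, array weights, variance model, shared numbers and left-out samples. Permutation tests and figures used Python 3.11.15 with numpy 2.4.6, scipy 1.17.1, pandas 2.3.3 and matplotlib 3.10.9. Promoters and their build came from RefSeq, GRCm38.p6, and the probe annotation used gave genes without coordinates. One promoter sequence is not reported here.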

Additional observations from a re-analysis of the deposited data

Results flagged for a closer look

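Among 42 groups of 4 to 10 samples of the member probe sets, 2 held a sample far from the others, and chance flags about 5% of groups. The NG groups on Mouse430_2, with 11 samples each, were above that size and were not screened. The dim Runx1 probe set 1422865_at stood at 39.3 in captured DRG sample 005 on Mouse430_2, where the other 8 samples ran from 4.37 to 15.6. The dim Shox2 probe set 99043_s_at stood at 13.96 in captured DRG sample 008 on MG-U74Av2, where the other 4 ran from 7.31 to 8.12. Neither probe set was bright enough to be tested.

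For Hmx1 (94102_at) the difference between NG and DRG was itself different in captured neurons and in whole ganglia, by -2.20 on the log2 scale (SE 0.357, limma adjusted p = 8.96e-05). The 5 captured NG samples were all below the 5 captured DRG samples, while the whole groups overlapped. Most captured NG values may be background.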

How the results depend on the processing

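Outside leave-one-out fits, 327 of 355 recomputed log2 differences kept their direction and their side of the threshold. Prrxl1, Pou4f1, Hmx1, Tlx3 and Runx1 (1440878_at) in captured neurons on Mouse430_2, Hmx1 and Shox2 in captured neurons on MG-U74Av2 and Shox2 in whole ganglia stayed past the threshold in every alternative run. The count of members in whole ganglia was 2 without scaling, with the same median on every array, with quantile normalization, without the filter, with array weights and with all 4 groups fitted together, and 1 to 2 with a sample left out (2 without DRG sample 084 or NG sample 046 or 023). Without scaling and with equal medians, quantiles or weights, Hmx1 was the added call (log2 differences -0.73, -0.54, -0.54 and -0.54), and without the filter or with all 4 groups fitted together it was Runx1. The count for the difference between preparations was 2 with the smaller pseudocount and with array weights, and 1 to 2 with a sample left out (2 without whole DRG sample 019 or 037, whole NG sample 073, or captured NG sample 003 or 010), Tlx3 being added. Left-out samples moved the other counts between 8 and 10 on Mouse430_2, 2 and 3 in captured neurons on MG-U74Av2, 3 and 4 for captured against whole NG and 3 and 5 for captured against whole DRG. Other settings gave 7 to 11 on Mouse430_2.

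The differences that changed sign had not passed the threshold. Runx1 1452530_a_at gave 0.036 with equal medians, 0.040 with quantiles and 0.038 over sample numbers absent from MG-U74Av2, and -0.21 to 0.00049 with a sample left out. Runx1 1452531_at gave -0.084 without scaling, -0.085 with the replicate block and -0.21 over absent numbers, and -0.069 to 0.18 with a sample left out. Isl1 in whole ganglia gave -0.11 without scaling. For the difference between preparations, Runx1 gave -0.037 with array weights and -0.19 to 0.24 with a sample left out, and Shox2 gave -0.0095 to 0.33. The cause was not tested.

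Deviations of same-numbered samples correlated at -0.11 to 0.11 on MG-U74Av2 and -0.15 to 0.16 on Mouse430_2, with the own number best for 1 of 4 and 1 of 7, and the numbers were not taken as pairs. Whether they mark shared material is not settled by this. With the replicate block, 8 member probe sets passed on Mouse430_2 and 2 on MG-U74Av2, with Shox2 at -0.79 (adjusted p = 0.119), Runx3 at 0.55 (0.25) and Isl1 on MG-U74Av2 at 0.76 (0.0864) no longer passing, and Pou4f1 1429668_at, too dim for the test over all arrays, added (-1.47, 0.00296). Whole ganglia share 1 number, so no block was fitted there. Over sample numbers absent from MG-U74Av2 (NG n = 6, DRG n = 4), 7 passed on Mouse430_2, Runx1 1440878_at moved to -2.55 and Runx3 to 1.37, Shox2, Isl1 and Runx1 1422864_at no longer passed, and Pou4f1 1429668_at was added (-1.36, 0.0122). Leaving out NG samples 010 and 014 was chosen after seeing the data. Without scaling, Runx3 (adjusted p = 0.0758), Isl1 on Mouse430_2 (0.31) and Isl1 in captured neurons on MG-U74Av2 (0.17) no longer passed, and the last was also lost without the filter (0.0607). The same held for Shox2 on Mouse430_2 with quantiles (0.0515) and Tlx3 for captured against whole DRG without scaling (0.147).

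Over all probe sets, the scaling set the balance of calls. On Mouse430_2, 2733 were higher in NG and 3517 in DRG, against 3845 and 2210 with equal medians and 1016 and 3141 without scaling. In whole ganglia they were 1508 and 1219, against 1020 and 1532 with equal medians and 227 and 1685 without scaling. In captured neurons on MG-U74Av2 they were 792 and 860, against 386 and 703 without scaling. Without scaling the median of all log2 differences moved by -0.34 in whole ganglia and -0.12 on Mouse430_2, and with equal medians by -0.10 and 0.14.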
